A study of Mus musculus with 13 samples.

Results

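Alveolar macrophages live on the inner surface of the air sacs, where they take up and break down the lipid-rich surfactant that lines the alveoli. The results below describe 7 of their lipid genes, a named list that was chosen with earlier results of these data known. They are Lpl and Cd36 (fatty acid release and uptake), Fabp4 and Fabp5 (intracellular fatty acid chaperones), Plin2 (lipid droplet coat), and Pla2g7 and Pla2g15 (phospholipases). Each symbol matched 1 identifier among the 43430 genes of the count table, and all 7 were among the 11906 genes that passed the filter on low counts.

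As background, lipoprotein lipase (Lpl) frees fatty acids from triglyceride in lipoproteins, and the scavenger receptor Cd36 carries long-chain fatty acids and oxidised lipoproteins into the cell. Inside, Fabp4 and Fabp5 bind fatty acids and move them between membranes, nucleus and lipid droplets, and the fat that is stored sits in droplets coated by perilipins such as Plin2. The nuclear receptor PPAR-gamma, encoded by Pparg, is required for the identity and lipid handling of alveolar macrophages, and Cd36, Fabp4, Lpl and Plin2 are textbook targets of PPAR receptors. Pla2g15 is the lysosomal phospholipase A2 that degrades phospholipids of engulfed surfactant, and Pla2g7 is a secreted enzyme, platelet-activating factor acetylhydrolase, that cleaves platelet-activating factor and oxidised phospholipids.

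The cells came from male C57Bl/6 mice aged 10 weeks in a layout of 2 drinking-water arms by 2 instillates. The groups were Metformin PM (n = 3 libraries), Vehicle PM (n = 3), Metformin PBS (n = 3) and Vehicle PBS (n = 4). Metformin, a biguanide drug for type 2 diabetes, was drunk at a dose of 100 mg/kg/day beginning 24 h ahead of the instillation. PM was 10 µg per animal of a standardised particulate matter given into the trachea, PBS was phosphate-buffered saline, and lungs were taken 24 h later. Polyadenylated RNA of sorted cells was sequenced as single 75 bp reads, and the counts per library totalled 6.515 to 8.101 M in Metformin PM, 6.182 to 7.107 M in Vehicle PM, 6.17 to 6.434 M in Metformin PBS and 5.567 to 6.362 M in Vehicle PBS (M, megacounts). The labels call the libraries biological replicates without naming the animals, so p-values measure the spread between these libraries. No batch is given in the labels. Titles number the libraries group by group, with gaps outside Vehicle PBS. The numbers are 21 to 24 in Vehicle PBS, 25, 27 and 28 in Metformin PBS, 29 to 31 in Vehicle PM, and 33, 35 and 36 in Metformin PM. The labels do not say what the number stands for. Any order that it records cannot be told apart from group.

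The label of the sorted cells was set against marker genes. All 9 alveolar macrophage markers were tested, and their summed level lay between 21130 and 27300 CPM (counts per megacount of the scaled library total) in the 13 libraries. Neutrophil markers summed to 65.7 to 66.0 CPM in Metformin PM, 58.3 to 65.0 in Vehicle PM, 61.9 to 65.0 in Metformin PBS and 65.4 to 82.7 in Vehicle PBS, and Ly6g, Retnlg and Camp had no count in any library. Alveolar epithelial markers, 8 of 8 tested, summed to 249 to 294.7 CPM in Metformin PM, 215.6 to 261.9 in Vehicle PM, 231.2 to 284.5 in Metformin PBS and 230.1 to 275.3 in Vehicle PBS. Epcam and Cdh1 held most of that sum, and the surfactant gene Sftpc averaged 46.6 CPM in Metformin PM, 29.1 in Vehicle PM, 19.6 in Metformin PBS and 23.3 in Vehicle PBS. Endothelial cells and fat cells also express Cd36 and Fabp4, and fat cells also express Lpl. Endothelial markers, 7 of 8 tested, summed to 17.9 to 38.1 CPM in Metformin PM, 8.90 to 23.9 in Vehicle PM, 10.0 to 15.9 in Metformin PBS and 10.8 to 19.9 in Vehicle PBS. Fibroblast and adipocyte markers, 4 of 7 tested, summed to 16.9 to 26.0 CPM in Metformin PM, 4.66 to 16.3 in Vehicle PM, 6.01 to 9.49 in Metformin PBS and 5.002 to 13.8 in Vehicle PBS, and the adipocyte gene Adipoq averaged 0.0425 CPM in Metformin PM and was at 0 in the other groups. Both lists reached their highest sums in Metformin PM. Under PM with metformin the median log2 fold change was 1.01 over the tested endothelial markers (2 called higher, 0 lower), 1.02 over the epithelial ones (4 higher, 1 lower) and 1.34 over the fibroblast and adipocyte ones (2 higher, 0 lower). Under PM with vehicle these medians were 0.19, 0.31 and −0.03, with 0 called by edgeR and 0, 2 and 0 at an unadjusted p under 0.05. The part of these cells in the results on Metformin PM, among them those on Cd36, Fabp4 and Lpl, was not tested.

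Fabp4 and Fabp5 are neighbours in 1 gene cluster and encode related proteins, so their sequences show first whether reads could be split between them. In mm10, Fabp5 (ENSMUSG00000027533) lies at chr3:10012548-10016607 on the plus strand and Fabp4 (ENSMUSG00000062515) at chr3:10204088-10208576 on the minus strand. A stretch of 75 coding bases, 1 read length, from the start of the aligned coding sequences in GENCODE M21 reads as follows, with capitals at the bases that differ between the genes.
Fabp4, coding bases 1 to 75: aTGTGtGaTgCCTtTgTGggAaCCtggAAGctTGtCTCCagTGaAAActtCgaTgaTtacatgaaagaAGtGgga
Fabp5, coding bases 7 to 81: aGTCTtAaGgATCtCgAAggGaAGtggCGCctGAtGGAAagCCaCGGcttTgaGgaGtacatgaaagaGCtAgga
Of these 75 positions, 35 differed. Over all 399 aligned coding positions 60.4% were identical, and the longest identical run was 12 bases, far shorter than a read. No stretch of 75 bases was shared between any of the 7 genes' transcripts. Fabp5 shared 3.03% of its stretches with other genes' transcripts (Gm14328 and Gm6166), Pla2g7 5.12%, Lpl 0.888%, Plin2 0.83%, and Fabp4, Cd36 and Pla2g15 none.

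Of the rest of that cluster, Pmp2 and Fabp9 lie between Fabp5 and Fabp4. Pmp2 had 0 counts in all libraries, and Fabp9 had 1 count in Metformin PM, 1 in Vehicle PM, 0 in Metformin PBS and 0 in Vehicle PBS. Beyond Fabp4 and Fabp5, the one family member at a comparable count was Fabp1, the liver type, with 3021 counts summed over Metformin PM, 2249 over Vehicle PM, 2963 over Metformin PBS and 4103 over Vehicle PBS. The cells thus held reads of 3 Fabp genes, while Fabp3, Fabp7 and Fabp12 had at most 4 counts in the sum of any group.

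Promoters from the RefSeq table (GRCm38.p6, from 250 bases before to 50 bases after a start) were found for Cd36, Plin2, Pla2g7 and Pla2g15, and Fabp4, Fabp5 and Lpl had no entry. The promoters were searched on both strands for AGGTCA, the half-site bound by nuclear receptors, because Pparg codes for one. Upstream stretches are shown for Cd36 and Plin2, which each held 1 half-site on the reverse strand (in capitals, as TGACCT), and for Pla2g7, which held none and had the greatest PM response of the 7.
Cd36, chr5:17835897-17836146, minus strand: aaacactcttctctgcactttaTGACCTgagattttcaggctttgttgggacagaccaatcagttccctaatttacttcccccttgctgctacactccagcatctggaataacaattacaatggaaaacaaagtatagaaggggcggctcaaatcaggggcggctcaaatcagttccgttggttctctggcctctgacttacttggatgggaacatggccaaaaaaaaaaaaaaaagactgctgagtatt
Plin2, chr4:86670060-86670309, minus strand: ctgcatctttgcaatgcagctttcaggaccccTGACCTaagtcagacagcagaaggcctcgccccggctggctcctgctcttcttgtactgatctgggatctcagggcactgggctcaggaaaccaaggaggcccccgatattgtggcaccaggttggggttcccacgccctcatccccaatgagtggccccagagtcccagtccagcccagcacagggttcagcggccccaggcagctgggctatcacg
Pla2g7, chr17:43568201-43568450, plus strand: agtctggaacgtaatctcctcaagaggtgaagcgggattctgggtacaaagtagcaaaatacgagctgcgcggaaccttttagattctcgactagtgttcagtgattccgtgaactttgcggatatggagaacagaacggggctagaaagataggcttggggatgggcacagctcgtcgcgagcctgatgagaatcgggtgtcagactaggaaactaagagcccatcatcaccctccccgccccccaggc
The printed Cd36 and Pla2g7 windows lie inside the spans that the count table gives for these genes. They are thus upstream of the start in the RefSeq table but not of the counted gene. The half-site began 228 bases before the start in Cd36 and 218 bases before it in Plin2 and was not among the letters of the Pla2g7 or Pla2g15 window. Of all 32851 promoters in the table, 16.3% held it. The direct repeat AGGTCANAGGTCA stood in none of the 4 windows and in 0.0396% of all promoters. A match is a description of letters and does not show binding.

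The 7 genes spanned a wide range of expression. On a scale of CPM per kilobase of the principal transcript, Lpl was the highest of them, at 837 in Metformin PM, 1059 in Vehicle PM, 941 in Metformin PBS and 1169 in Vehicle PBS, and ranked between 25 and 36 of 10805 genes with a length. Plin2 followed at 747, 747, 771 and 800 in those groups. Lpl and Plin2 libraries did not overlap in any group. Next came Pla2g15, between 193 and 232 in the 4 group means, and Cd36, between 142 and 183. These neighbours overlapped among the Vehicle PM libraries (Pla2g15 188 to 208, Cd36 160 to 199) and were apart in the other 3 groups. Fabp5 stood at 97.7 to 142 and Fabp4 at 70.9 to 119 in the group means. The chaperones overlapped in Vehicle PBS (Fabp5 90.6 to 105, Fabp4 75.2 to 96.8), and in the other groups every Fabp5 library was above every Fabp4 library. Pla2g7 was far below the rest, at 3.72, 3.64, 1.38 and 0.713 per kilobase, with ranks between 8260 and 10214.

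**Figure D1:**
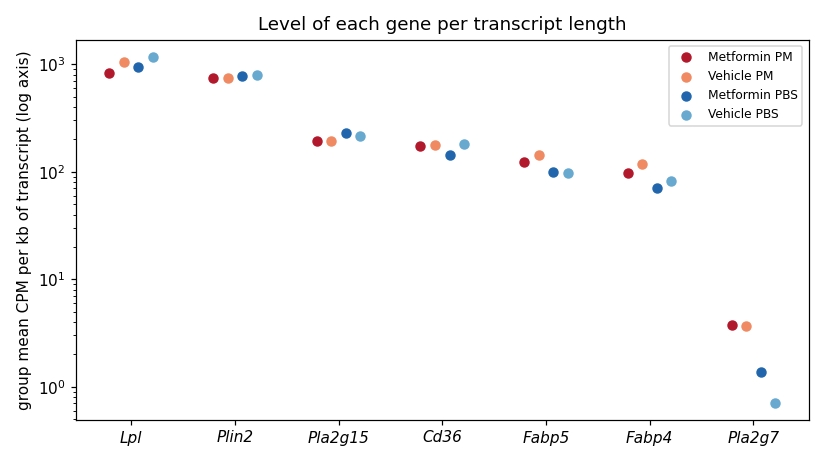
Mean level of the 7 genes in the 4 groups, in normalised CPM per kilobase of the principal transcript on a log axis; each point is a group mean (n = 3, and n = 4 in Vehicle PBS). Lpl and Plin2 are at the top in each group and Pla2g7, between 0.713 and 3.72, is at the bottom.

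Instilled particles raised the chaperones and Pla2g7 in both drinking-water arms. With metformin, 4 of the 7 genes were called higher (Fabp4, Fabp5, Cd36 and Pla2g7; a call is an adjusted p under 0.05) and 1 lower (Pla2g15), against 7.18% of all tested genes called higher and 5.60% called lower. With vehicle, 3 were called higher (Fabp4, Fabp5 and Pla2g7) and 0 lower, against 2.60% of tested genes called higher and 2.26% called lower. Metformin against vehicle lowered 1 of 7 genes in PM mice (Lpl) and raised 0, against 2.81% of tested genes called lower and 4.08% called higher. In PBS mice it lowered 2 of 7 (Cd36 and Lpl) and raised 0, against 1.93% called lower and 1.13% called higher. The median log2 fold change over the 7 genes was 0.30, −0.04, −0.02 and −0.05 in these comparisons, beside medians of −0.004 to 0.005 over all tested genes. Among all tested genes, the libraries of the 2 groups compared did not overlap for 30% under PM with metformin and 14.9% with vehicle. For metformin against vehicle the shares were 26.5% in PM mice and 13.7% in PBS mice. Statements that follow on overlap between 2 groups are read beside these shares. No share was computed for statements that pool more groups, such as all PM against all PBS libraries. Comparisons that share a group are not independent, since each group enters 2 of the 4. In this bulk RNA, fewer cells of a type and less RNA per cell cannot be told apart.

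**Figure D2:**
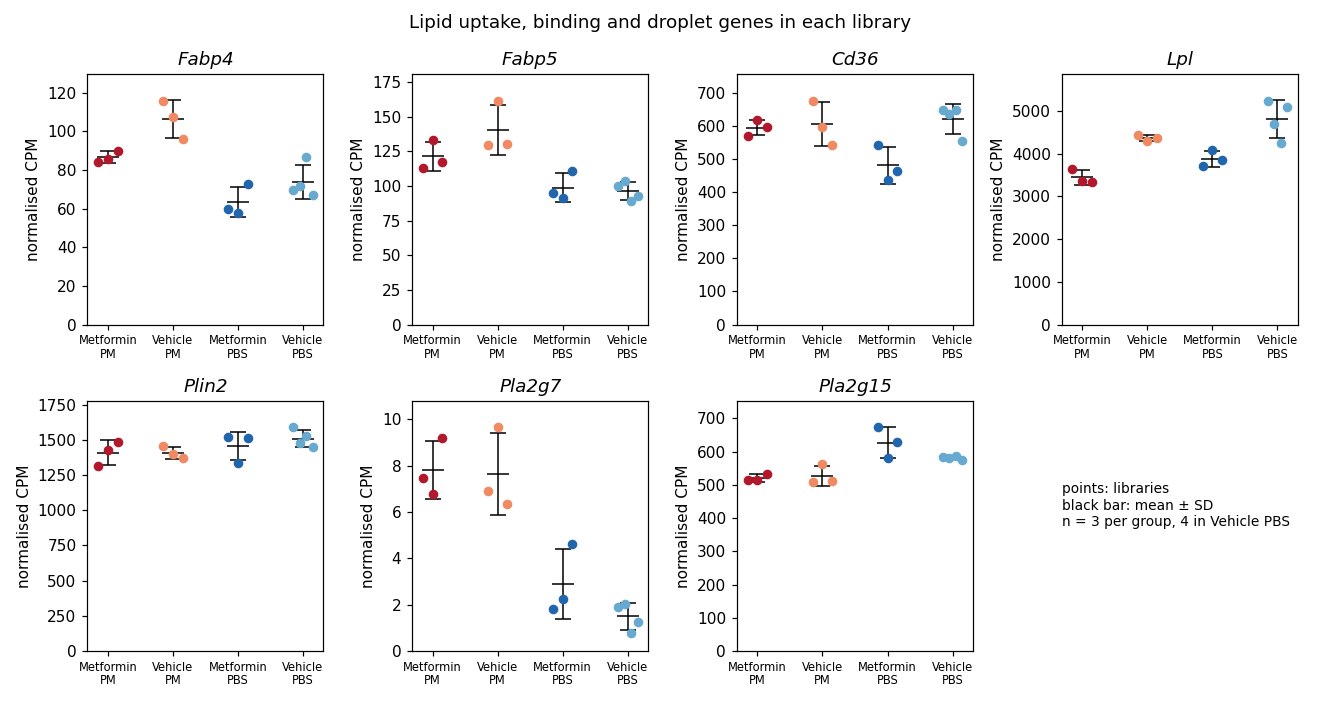
Normalised CPM of each gene in every library (points), with the group mean and SD (black bars); n = 3 libraries per group and 4 in Vehicle PBS. Fabp4, Fabp5 and Pla2g7 are higher in the PM groups than in the PBS groups of the same drinking-water arm without overlap, which held for 30% (metformin) and 14.9% (vehicle) of all tested genes in 1 direction or the other, and each vertical axis starts at 0.

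Fabp4 had 84.2, 86.0 and 90.0 CPM in the Metformin PM libraries, 116, 107 and 96.3 CPM in Vehicle PM, 60.1, 57.8 and 72.5 CPM in Metformin PBS, and 69.8, 71.6, 86.7 and 67.4 CPM in Vehicle PBS. Every Vehicle PM library was above every other library, and PM was above PBS in both arms. The PM effect was 1.36-fold with metformin (log2 fold change 0.45 ± 0.10 SE, 95% interval 0.25 to 0.65, edgeR adjusted p = 0.00407) and 1.44-fold with vehicle (0.53 ± 0.09, 0.35 to 0.71, adjusted p = 0.000794). In PM mice, Fabp4 was lower with metformin than with vehicle in 3 of 3 libraries, but the difference missed the threshold (−0.30 ± 0.09, edgeR adjusted p = 0.0544). DESeq2 (−0.30, adjusted p = 0.0489) and edgeR with other size factors (−0.31, adjusted p = 0.0486) put it just past the threshold. It was also called with no filter (−0.31, adjusted p = 0.00164), with only the groups compared (−0.30, adjusted p = 0.0116) and without Vehicle PM 3 (−0.37, adjusted p = 0.0338), and was not called in the other 9 of 14 alternatives.

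Fabp5 had 113, 133 and 118 CPM in Metformin PM, 130, 161 and 130 CPM in Vehicle PM, 94.6, 91.4 and 111 CPM in Metformin PBS, and 99.7, 103, 89.4 and 93.1 CPM in Vehicle PBS. All 6 PM libraries were above all 7 PBS libraries. With metformin the rise under PM was 1.23-fold (0.30 ± 0.09, 95% interval 0.10 to 0.49, edgeR adjusted p = 0.0390), and this call was lost with scaling by library totals (0.28) and without Metformin PBS 1 (0.25), Metformin PBS 3 (0.24), Metformin PM 3 (0.21) or Metformin PM 4 (0.31). With vehicle it was 1.46-fold (0.54 ± 0.09, 0.36 to 0.72, edgeR adjusted p = 0.000515). Metformin against vehicle was not called in PBS mice (0.04 ± 0.09, −0.15 to 0.22) or in PM mice (−0.21 ± 0.09, −0.40 to −0.02, adjusted p = 0.184), where the value was −0.10 without Vehicle PM 2.

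Pla2g7, at chr17:43568098-43612201 on the plus strand (ENSMUSG00000023913), had the greatest fold among the 7 and the fewest reads. It had 60, 53 and 59 raw counts in Metformin PM, 49, 62 and 39 in Vehicle PM, 11, 14 and 30 in Metformin PBS, and 12, 13, 5 and 7 in Vehicle PBS. As CPM these were 7.45, 6.75 and 9.18 in Metformin PM, 6.92, 9.64 and 6.34 in Vehicle PM, 1.80, 2.23 and 4.62 in Metformin PBS, and 1.90, 2.04, 0.797 and 1.25 in Vehicle PBS. All PM libraries were above all PBS libraries, and 1 Metformin PBS library stood between the PBS and PM ranges. PM went with a 2.65-fold level with metformin (1.41 ± 0.29, 95% interval 0.81 to 2.002, edgeR adjusted p = 0.00258) and a 5.02-fold level with vehicle (2.33 ± 0.31, 1.69 to 2.97, adjusted p = 7.29e-05). Metformin against vehicle was not called in PBS mice (0.94 ± 0.38, 0.15 to 1.73, adjusted p = 0.190; 0.42 without Metformin PBS 4) or in PM mice (0.02 ± 0.24, −0.48 to 0.51). Pla2g7 reached the filter's minimum of 1.57 CPM in 11 of 13 libraries, 2 of the 4 Vehicle PBS libraries among them. Its transcripts overlap those of 1700071M16Rik on the other strand by up to 153 bp, and that gene had 1 to 14 counts per library. The kit does not keep strand, so the counts of Pla2g7 are uncertain to that extent.

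Markers of monocytes and monocyte-derived macrophages, 6 of 12 tested, summed to 2047 to 2485 CPM in Metformin PM, 2075 to 2967 in Vehicle PM, 1681 to 2364 in Metformin PBS and 1385 to 1761 in Vehicle PBS, and fibronectin, Fn1, which macrophages also make and which overlaps another counted gene, held most of that sum. Like Fabp4, Fabp5 and Pla2g7, markers of this list were higher under PM in both arms: 3 of 6 were called higher with metformin and 4 with vehicle, and 0 lower, with median log2 fold changes of 1.19 and 1.02. Mmp14 was 21.4-fold higher under PM with metformin and 26.2-fold with vehicle, and Mmp12, the macrophage elastase, 5.25-fold and 3.11-fold. The folds of Mmp14 are imprecise because its PBS level was near the floor. It averaged 0.576 CPM in Metformin PBS (2 to 6 counts per library) and 0.439 CPM in Vehicle PBS (1 to 6 counts). The classical monocyte gene Ly6c2 averaged 0.0849 CPM in Metformin PM, 0.0518 in Vehicle PM, 0.0531 in Metformin PBS and 0.0447 in Vehicle PBS. Itgam, the CD11b integrin chain, averaged 10.8 CPM in Metformin PM, 11.6 in Vehicle PM, 3.38 in Metformin PBS and 4.51 in Vehicle PBS. Whether these genes share a source with the 3 lipid genes was not tested.

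Cd36, at chr5:17781690-17888959 on the minus strand (ENSMUSG00000002944), was low in 1 group. It had 571, 618 and 599 CPM in Metformin PM, 676, 598 and 543 CPM in Vehicle PM, 544, 438 and 463 CPM in Metformin PBS, and 648, 636, 649 and 554 CPM in Vehicle PBS. Each Metformin PBS library was below each library of Vehicle PBS and of Metformin PM, whereas both PM groups and Vehicle PBS overlapped. In PBS mice metformin went with 0.775 times the vehicle level (−0.37 ± 0.08, 95% interval −0.53 to −0.20, edgeR adjusted p = 0.0130), a call lost without Metformin PBS 3 (−0.30, adjusted p = 0.0697) or Metformin PBS 4 (−0.34, adjusted p = 0.0888). PM raised Cd36 1.24-fold with metformin (0.31 ± 0.08, 0.13 to 0.48, adjusted p = 0.0187). That call was lost without Metformin PBS 3 (0.24), Metformin PBS 4 (0.28), Metformin PM 3 (0.27) or Metformin PM 4 (0.29). With vehicle the PM effect on Cd36 was −0.04 ± 0.08 (−0.20 to 0.12), and metformin against vehicle in PM mice was −0.02 ± 0.08 (−0.20 to 0.15), neither called.

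Lpl, at chr8:68880491-68907448 on the plus strand (ENSMUSG00000015568), was lower with metformin whatever the instillate. The libraries had 3649, 3365 and 3324 CPM in Metformin PM, 4430, 4289 and 4359 CPM in Vehicle PM, 3706, 4073 and 3839 CPM in Metformin PBS, and 5230, 4682, 4251 and 5085 CPM in Vehicle PBS. Within each instillate, no metformin library reached the lowest vehicle library. Metformin went with 0.791 times the vehicle level in PM mice (−0.34 ± 0.06, 95% interval −0.47 to −0.21, edgeR adjusted p = 0.00244) and 0.805 times in PBS mice (−0.31 ± 0.06, −0.44 to −0.19, adjusted p = 0.00684). Both calls stood under all alternatives run, with values of −0.39 to −0.31 in PM mice and −0.37 to −0.27 in PBS mice. PM against PBS was not called with metformin (−0.17 ± 0.06, −0.30 to −0.04, adjusted p = 0.0930) or with vehicle (−0.14 ± 0.06, −0.27 to −0.02, adjusted p = 0.219).

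Plin2, at chr4:86648386-86670060 on the minus strand (ENSMUSG00000028494), stayed uncalled in all 4 comparisons. It had 1314, 1426 and 1488 CPM in Metformin PM, 1457, 1400 and 1373 CPM in Vehicle PM, 1519, 1339 and 1510 CPM in Metformin PBS, and 1588, 1478, 1524 and 1448 CPM in Vehicle PBS. The 95% intervals of the log2 fold change were −0.17 to 0.08 for PM with metformin, −0.21 to 0.02 for PM with vehicle, −0.12 to 0.12 for metformin in PM mice and −0.17 to 0.06 for metformin in PBS mice.

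Pla2g15, at chr8:106150399-106164713 on the plus strand (ENSMUSG00000031903), was lower under PM with metformin. It had 515, 515 and 533 CPM in Metformin PM, 509, 563 and 512 CPM in Vehicle PM, 673, 581 and 628 CPM in Metformin PBS, and 583, 581, 588 and 576 CPM in Vehicle PBS. All 6 PM libraries were below all 7 PBS libraries. The PM level was 0.831 times that of PBS with metformin (−0.27 ± 0.06, 95% interval −0.39 to −0.15, edgeR adjusted p = 0.00322). With vehicle the value was −0.14 ± 0.05 (−0.25 to −0.03, adjusted p = 0.156) and was not called.

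Differences between the arms in the response to PM were tested directly. None of the 7 genes was called by edgeR, DESeq2 or limma-voom, and 1 of 7, Cd36, had an unadjusted p under 0.05, against 1.44% of all tested genes called in either direction. The difference of log2 fold changes, metformin minus vehicle, was 0.34 ± 0.11 for Cd36 (95% interval 0.11 to 0.58, edgeR adjusted p = 0.176), −0.92 ± 0.45 for Pla2g7 (−1.85 to 0.01) and −0.25 ± 0.13 for Fabp5 (−0.51 to 0.02). Without Metformin PBS 4 it was −0.40 for Pla2g7 and −0.16 for Fabp5, and without Vehicle PM 2 it was −0.14 for Fabp5. It was −0.08 ± 0.13 for Fabp4 (−0.35 to 0.19), −0.13 ± 0.08 for Pla2g15 (−0.29 to 0.03), 0.05 ± 0.08 for Plin2 (−0.12 to 0.22) and −0.03 ± 0.09 for Lpl (−0.21 to 0.16). The calls of Cd36 and Pla2g15 under PM with metformin but not with vehicle are therefore not shown to differ between the arms.

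**Figure D3:**
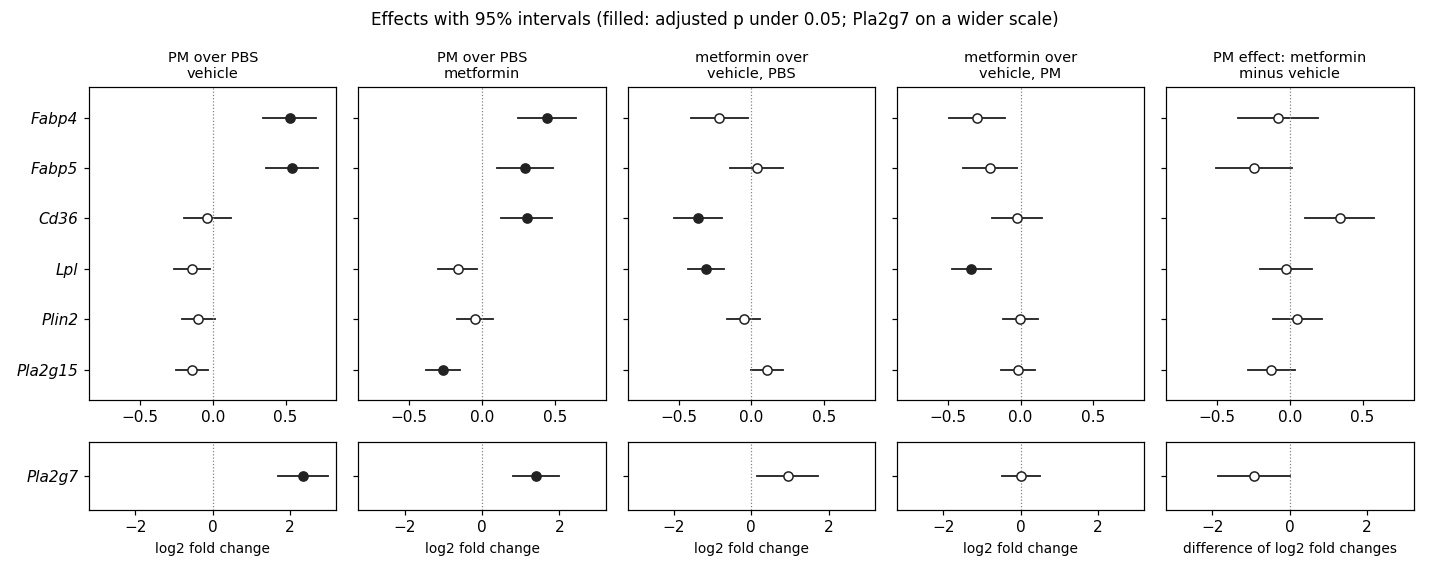
Log2 fold changes of the 7 genes in the 4 comparisons and, on the right, the difference of the PM effects (metformin minus vehicle), with 95% intervals; filled points have an adjusted p under 0.05, and Pla2g7 has an axis of its own. Fabp4, Fabp5 and Pla2g7 lie above 0 under PM in both arms, Lpl lies below 0 with metformin in both instillates, and no point of the difference is filled.

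Genes of the same pathways were counted from 6 lists, whose shares can be set against the percentages of all tested genes above. The first held 17 further uptake and activation genes, 16 of them tested. Under PM, 6 were called higher with metformin and 4 with vehicle, and 0 lower in either arm. Marco, a scavenger receptor of alveolar macrophages, was like Cd36 lowest in Metformin PBS, with medians of 445 CPM in Metformin PM, 559 in Vehicle PM, 183 in Metformin PBS and 397 in Vehicle PBS. It rose under PM with metformin (1.44 ± 0.18, edgeR adjusted p = 1.84e-05) and, unlike Cd36, was also called with vehicle (0.62 ± 0.16, adjusted p = 0.0248), though not by DESeq2 (0.62) or without Vehicle PM 1 or 2 or Vehicle PBS 4 (0.41 to 0.63). Marco was lower with metformin in PBS mice (−1.11 ± 0.17, adjusted p = 0.00245). The scavenger receptor and chemokine gene Cxcl16, which overlaps another counted gene, rose in both arms (1.27 ± 0.20 with metformin, 0.98 ± 0.20 with vehicle). Msr1, the class A scavenger receptor, rose in both arms. With metformin its change was 0.81 ± 0.20 (edgeR adjusted p = 0.00983), not called without Metformin PM 4 or Metformin PBS 4 (0.62 to 0.70), and with vehicle it was 0.65 ± 0.16 (adjusted p = 0.0225), a call lost without Vehicle PM 2 or 3 or Vehicle PBS 2 or 4 (0.51 to 0.61). In PBS mice 1 of the list was called higher with metformin and 2 lower, and in PM mice 0 higher and 1 lower. The acyl-CoA synthetase gene Acsl5 was lower in PBS mice (−0.20 ± 0.05, adjusted p = 0.0370), but not without Metformin PBS 1, 3 or 4 or Vehicle PBS 1, 2 or 4 (−0.22 to −0.19). The lipoprotein receptor Scarb1 was lower in PM mice (−0.23 ± 0.07, adjusted p = 0.0374), but not without Metformin PM 1 or 4 or Vehicle PM 1, 2 or 3 (−0.24 to −0.21).

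Of 14 further lipid-binding genes, 9 were tested. Under PM, 2 were called higher and 1 lower with metformin, and 1 higher and 2 lower with vehicle; metformin against vehicle gave 0 in either instillate by edgeR, DESeq2 and limma-voom, with 3 at an unadjusted p under 0.05 in each. Stard4, a cholesterol transfer protein, rose in both arms (0.59 ± 0.12 with metformin, 0.75 ± 0.12 with vehicle). Fabp1, unlike Fabp4 and Fabp5, was not raised by PM. It had a median of 139 CPM in Metformin PM, 116 in Vehicle PM, 157 in Metformin PBS and 165 in Vehicle PBS, and it fell under PM with vehicle (−0.55 ± 0.07, edgeR adjusted p = 0.000101). Dbi, an acyl-CoA-binding protein, was called higher under PM with metformin (0.26 ± 0.07), though not without Metformin PM 3 (0.24). The calls of Scp2, the sterol carrier protein (−0.18 ± 0.06 with metformin, −0.19 ± 0.05 with vehicle), were lost without Metformin PM 1, 3 or 4 or Metformin PBS 3 or 4 (−0.20 to −0.16) and without any Vehicle PM library or Vehicle PBS 1, 2 or 4 (−0.23 to −0.14).

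Among 18 regulators of lipoprotein lipase and neutral lipases, 13 were tested. Called higher and lower under PM were 3 and 2 with metformin and 0 and 1 with vehicle, and for metformin against vehicle 2 and 0 in PM mice and 0 and 2 in PBS mice. Pnpla2, the adipose triglyceride lipase that starts the breakdown of stored fat, had medians of 278 CPM in Metformin PM, 186 in Vehicle PM, 179 in Metformin PBS and 172 in Vehicle PBS. Every Metformin PM library was above every library of the other groups. It rose under PM with metformin (0.61 ± 0.07, edgeR adjusted p = 1.19e-05), and its PM effect differed between the arms (0.55 ± 0.10, adjusted p = 0.00607). Sel1l, needed for lipoprotein lipase to leave the endoplasmic reticulum, was higher with metformin in PM mice (0.34 ± 0.06, adjusted p = 0.000713), where Lpl itself was lower. The lipase maturation factor Lmf2 was lower with metformin in PBS mice (−0.36 ± 0.08, adjusted p = 0.0169), as was Abhd5, the co-activator of Pnpla2 (−0.28 ± 0.06, adjusted p = 0.0182), which overlaps another counted gene. Both calls in PBS mice were fragile: that of Lmf2 was lost without Metformin PBS 3 or 4 or Vehicle PBS 1 (−0.36 to −0.34), and that of Abhd5 without Metformin PBS 1, 3 or 4 or Vehicle PBS 1 or 2 (−0.28 to −0.26). Nceh1, a cholesteryl ester hydrolase, fell under PM by 0.22 ± 0.05 with metformin and by 0.24 ± 0.05 with vehicle.

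Lipid droplet coat and assembly genes other than Plin2 numbered 20, with 16 tested. Under PM, 3 were called higher and 0 lower with metformin, and 0 higher and 2 lower with vehicle; metformin raised 3 in PM mice and lowered 0. In PBS mice metformin gave 0 calls by edgeR, DESeq2 and limma-voom, with 2 at an unadjusted p under 0.05. Dgat2, which makes triglyceride for droplets, had medians of 191 CPM in Metformin PM, 108 in Vehicle PM, 91.0 in Metformin PBS and 94.8 in Vehicle PBS, with every Metformin PM library above all others. It rose 2.11-fold under PM with metformin (1.08 ± 0.10, edgeR adjusted p = 8.54e-07), and the difference between the arms was 0.93 ± 0.14 (adjusted p = 0.00234). For Dgat2 as for Pnpla2, the high group was Metformin PM, in which endothelial, epithelial and fibroblast markers were also high, and their part was not tested. Hilpda, an inhibitor of Pnpla2, rose under PM with metformin (0.58 ± 0.12). The cholesterol esterifying enzyme Soat1 also rose under PM in that arm (0.18 ± 0.06, edgeR adjusted p = 0.0384). Soat1 was not called without Metformin PM 3 or 4 or Metformin PBS 3 or 4 (0.14 to 0.17). With vehicle, PM lowered the droplet fusion gene Cidec (−0.34 ± 0.06, adjusted p = 0.000785) and the triglyceride synthesis gene Dgat1 (−0.56 ± 0.13, adjusted p = 0.0151). In PM mice Cidec (0.33 ± 0.06) and Dgat1 (0.61 ± 0.14) were higher with metformin. The calls of Dgat1 were lost without Vehicle PM 1 or 2 or Vehicle PBS 4 for PM with vehicle (−0.53 to −0.48), and without Metformin PM 1 or Vehicle PM 2 for metformin in PM mice (0.50 to 0.55). The droplet coat gene Plin2 was called in none of these comparisons.

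Of 23 other phospholipases and lysophospholipid enzymes, 17 were tested. Under PM, 1 was called higher and 1 lower with metformin, and 0 higher and 1 lower with vehicle. For metformin against vehicle in PBS mice, 0 were called higher and 1 lower. Pld4, a phospholipase D family member of myeloid cells, fell under PM with metformin (−0.35 ± 0.07, edgeR adjusted p = 0.00127) and with vehicle (−0.44 ± 0.06, adjusted p = 0.000163). Lpcat2, which makes platelet-activating factor, the substrate of Pla2g7, rose under PM with metformin (0.71 ± 0.19, adjusted p = 0.0192), a call lost without Metformin PM 3 or 4 or Metformin PBS 4 (0.56 to 0.65). Pla2g4a, the cytosolic phospholipase A2, was lower with metformin in PBS mice (−0.27 ± 0.07, adjusted p = 0.0399), though not without Metformin PBS 3 or 4 or Vehicle PBS 1 or 2 (−0.28 to −0.22). No other gene of the list was called by edgeR in the 4 comparisons, and for metformin in PM mice the count was 0 by edgeR, DESeq2 and limma-voom, with 1 at an unadjusted p under 0.05.

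Nuclear regulators numbered 14, with 13 tested. Pparg had a median of 246 CPM in Metformin PM (range 228 to 262), 205 in Vehicle PM (194 to 218), 186 in Metformin PBS (172 to 206) and 169 in Vehicle PBS (160 to 207). It rose under PM with metformin (0.38 ± 0.09, edgeR adjusted p = 0.00549), and was not called under PM with vehicle (0.22 ± 0.08, adjusted p = 0.1496), for metformin in PM mice (0.25 ± 0.09, adjusted p = 0.0826) or for metformin in PBS mice (0.09 ± 0.08). The difference of its PM effects was not called either (0.16 ± 0.12, adjusted p = 0.646). Under PM with metformin 3 of the list fell, among them Tfeb, the driver of lysosomal genes (−0.62 ± 0.07, adjusted p = 1.1e-05), and Srebf1, a regulator of lipid synthesis that overlaps another counted gene (−0.37 ± 0.06). For metformin against vehicle in PM mice, 1 of the list was called higher and 3 were called lower. Tfeb (−0.63 ± 0.07) and Srebf1 (−0.39 ± 0.06) were among those called lower. For PM with vehicle and for metformin in PBS mice, 0 of the list were called by edgeR, DESeq2 or limma-voom, with 3 and 4 at an unadjusted p under 0.05. For Pparg, PM with vehicle was called without Vehicle PBS 3 (0.31, adjusted p = 0.0178) and with no filter (0.23, adjusted p = 0.0109), and metformin in PM mice with no filter (0.24, adjusted p = 0.00673) and with only the groups compared (0.25, adjusted p = 0.0201). For Tfeb the difference between the arms was called (−0.51 ± 0.10, adjusted p = 0.00935).

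**Figure D4:**
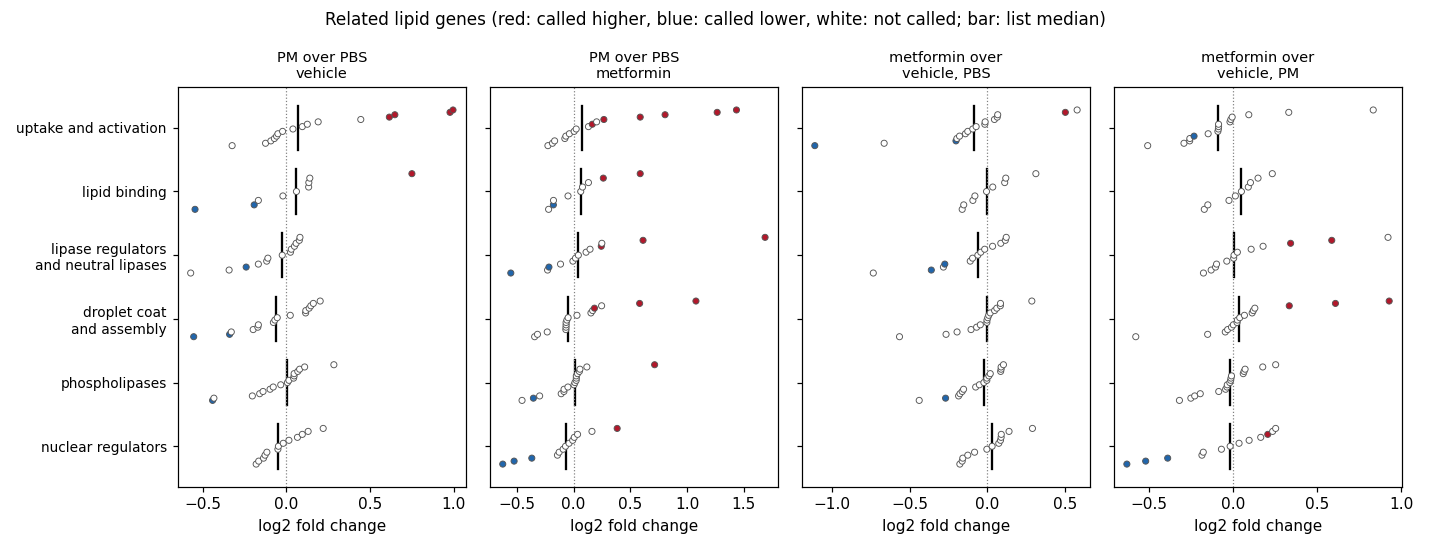
Log2 fold changes of the tested genes of the 6 related lists in the 4 comparisons; each point is a gene, red points were called higher, blue points lower and white points not called, and bars are list medians. List medians lie close to 0, and within each list most genes were not called. Under PM, 6 of 16 tested uptake and activation genes were called higher with metformin, against 7.18% of all tested genes. With vehicle 4 were called higher, against 2.60%, and 0 of that list were called lower in either arm.

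By the correlation of log2 CPM over the 13 libraries, the genes most like each of the 7 were listed as a description of pattern. The libraries fall into 4 groups that share controls, so a high value can come from the group differences alone. Pla2g7 was closest to Mmp14, a membrane matrix metalloproteinase that is also on the monocyte marker list (r = 0.945), and Slc7a11, the cystine transporter (r = 0.935). Fabp5 was closest to Hsd17b12, an enzyme of long-chain fatty acid elongation (r = 0.958), and the mitochondrial chaperone Hspa9 (r = 0.942), and Fabp4 to Mthfd2, a mitochondrial folate enzyme (r = 0.920), and Naa50 (r = 0.909). Lpl was closest to Nudcd3 (r = 0.953) and the diacylglycerol kinase Dgkz (r = 0.947), both overlapping another counted gene, Cd36 to Nmral1 (r = 0.915) and Haus4 (r = 0.910), and Pla2g15 to the Fc receptor Fcgr1 (r = 0.925) and Sipa1 (r = 0.916). Plin2 had the weakest matches, Gemin7 (r = 0.845) and Pecr, a peroxisomal reductase (r = 0.825) that overlaps another counted gene. None of the 7 was the closest gene to another of them.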

How the data were processed

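The authors deposited 1 table that holds, per the file headers, a raw read count for each of 43430 genes in each of 13 libraries of sorted alveolar macrophages, with Start, End and Length (unit "other"), of which Start and End were used here for positions. Per the labels' protocols, libraries were made from 100 ng of RNA (integrity number above 7) by poly(A) selection and NEBNext Ultra I chemistry, and read as 75 bp single ends. The submitters' processing notes name bcl2fastq 2.19, TopHat2, HTSeq, edgeR and mm10. Which annotation release HTSeq used, and whether it used strand, is not given in the sources used here.

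Symbols were found for 42462 IDs, and all 164 genes of the lists matched 1 ID each (1 by a synonym). The 7 genes, the related lists and the tests were chosen with earlier results of these data known. Named are the 7 genes, the 3 called genes of lowest adjusted p per related list and comparison, Pparg, and, among genes averaging 5 CPM or more, the 2 most correlated with each of the 7; some single genes are not reported here. Msr1 with metformin, Marco with vehicle and the marker genes given by value were named after their values were seen.

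Counts were analysed with R 4.3.3 and edgeR 4.0.16. Genes were filtered with filterByExpr (minimum count 10), libraries were scaled by the trimmed mean of M values, and quasi-likelihood models with a term for each group over all 13 libraries (9 residual degrees of freedom) were used for 5 comparisons: PM against PBS in each drinking-water arm, metformin against vehicle in each instillate, and the difference of the PM effects. P-values were adjusted over all 11906 genes by the Benjamini-Hochberg method within each comparison. CPM are counts per megacount of the scaled totals, and log2 CPM for correlations used a prior count of 2. Errors of log2 fold changes are standard errors and intervals are 95% intervals. Lengths are those of principal transcripts in GENCODE M21. The pipeline was tested on simulated data. Alternatives were DESeq2 1.42.0, limma-voom (limma 3.58.1), other scalings, no filter or at least 5 CPM in 3 libraries, a fit of only the groups compared, a replicate block, and leaving libraries out in turn; those for the related genes were added after the data were seen. No 2 libraries of a group agreed within sampling noise (chi-square per degree of freedom 2.12 to 6.54). Figures were drawn with Python 3.11.15 and Matplotlib 3.10.9, and sequences were aligned with Biopython 1.88. Protein sequences were not used here.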

Additional observations from a re-analysis of the deposited data

Results flagged for a closer look

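Cd36 in the Vehicle PBS group had 1 library apart from the others. Vehicle PBS 4 stood at 554 CPM, and the other 3 libraries lay between 636 and 649 CPM, so that the gap made up 0.861 of the group's range, above Dixon's 95% critical value for 4 libraries. Chance flags about 1 in 20 groups, and 7 genes were looked at in this way, all in Vehicle PBS, the one group of 4. Without Vehicle PBS 4, the log2 fold change of Cd36 for metformin against vehicle in PBS mice was −0.42 (edgeR adjusted p = 0.00328), beside −0.37 with it. The difference of its PM effects, metformin minus vehicle, was 0.40 without that library (adjusted p = 0.0691) and 0.34 with it.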

How the results depend on the processing

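Over 35 pairs of gene and comparison, 546 alternative values were computed for the 7 genes. Of these, 507 kept the direction and the side of the threshold, 11 lost a call, 11 gained one and 17 changed sign, in 10 pairs of which none was called. The calls of Fabp4 and Pla2g7 under PM in both arms, of Fabp5 under PM with vehicle, of Pla2g15 under PM with metformin and of Lpl with metformin in both instillates stood under every alternative run.

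The number of the 7 genes called for metformin in PM mice was 1, and it was 2 with median-ratio size factors, 2 with DESeq2, 2 with only the groups compared, 3 with no filter, and 1 to 2 when a library was left out. The gains were Fabp4 and, with no filter, also Fabp5. The number for metformin in PBS mice was 2, and 1 to 2 on leaving out a library. For PM with metformin it was 5, and 3 to 5 on leaving out a library (3 without Metformin PBS 3, Metformin PM 3 or Metformin PM 4). Over all alternatives run for PM with metformin it was 3 to 6. For the difference of the PM effects it was 0, but 1 with no filter (Cd36, 0.33) and 0 to 1 on leaving out a library (Cd36 without Metformin PBS 1, 0.43, adjusted p = 0.0356). Lpl under PM was called with vehicle without Vehicle PBS 3 (−0.20), and with metformin with no filter (−0.18) and without Metformin PBS 1 (−0.21). The cause of these changes was not tested.

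Values near 0 changed sign when libraries were left out. The ranges were −0.104 to 0.056 for Cd36, −0.051 to 0.028 for Pla2g15, −0.104 to 0.217 for Pla2g7 and −0.042 to 0.043 for Plin2 with metformin in PM mice. They were −0.052 to 0.093 for Fabp5 and −0.079 to 0.008 for Plin2 with metformin in PBS mice, and −0.124 to 0.036 for Cd36 under PM with vehicle. For the difference they were −0.167 to 0.025 for Fabp4, −0.078 to 0.029 for Lpl and −0.012 to 0.091 for Plin2. With at least 5 CPM in 3 libraries, Plin2 in PM mice was 0.006 with metformin.

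No pairing by the replicate numbers of the titles was seen: deviations of same-numbered libraries from their group means correlated at −0.102 to 0.116. These values cannot show that the libraries were unpaired. With the replicate number as a block the counts of the 7 genes called were unchanged (3, 5, 2, 1 and 0), and Cd36 with metformin in PM mice was 0.014. Of the related genes, Acsl5 (−0.195), Lmf2 (−0.351), Abhd5 (−0.256) and Pla2g4a (−0.231) in PBS mice and Scarb1 (−0.225) in PM mice lost their calls for metformin with the block. Acsl5, Soat1 and, under PM with vehicle, Scp2 also lost theirs with no filter (−0.198, 0.176 and −0.186) and with only the groups compared (−0.199, 0.177 and −0.193), Pla2g4a with only the groups compared (−0.265), and Soat1 with scaling by library totals (0.166). Pla2g7, with 5 to 62 counts per library, is the gene whose precision depth limits most.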
